A study of Mus musculus with 11 samples.

Results

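The transcripts described here encode the enzymes of cholesterol and fatty acid synthesis and the SREBP proteins that control them, 32 listed mouse genes of the 54686 entries of a gene expression table. The list was made by gene name, with earlier results of these data known. It holds 19 genes of sterol synthesis (from Acat2 to Dhcr7), 6 genes of SREBP control and sterol transport (Insig1, Insig2, Srebf1, Srebf2, Scap and Stard4) and 7 genes of fatty acid synthesis (Fasn, Acaca, Scd1, Scd2, Acly, Elovl6 and Acss2), and does not hold every enzyme of either pathway. All 32 were found, and all passed the filter of at least 1 FPKM in at least 2 libraries that left 12626 genes for testing. FPKM are fragments per kilobase of gene, normalized to the library's mapped fragments.

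RNA was sequenced from B16-OVA cells, a C57BL/6J mouse melanoma line that expresses ovalbumin, in 11 libraries of 4 groups. Cells received pooled siRNAs targeting YAP and TAZ (6 libraries, 3 heated and 3 unheated) or a control siRNA (5 libraries, 2 heated and 3 unheated). Heated cells were exposed to 45 °C for 1 h, 48 h after transfection, and kept at 37 °C for another 6 h, while unheated cells had no such treatment. The heated control siRNA group holds replicates 1 and 3. The labels do not call replicates separate cultures, so the p-values rest on a spread between samples that may be technical.

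Cholesterol is built from acetyl-CoA through mevalonate, isoprenoid diphosphates, squalene and lanosterol, while fatty acids are built from the same acetyl-CoA by acetyl-CoA carboxylase and fatty acid synthase. Both pathways are transcribed under SREBP factors, which are made as membrane proteins of the endoplasmic reticulum. The escort protein SCAP carries them to the Golgi for cleavage when sterols are low, and INSIG proteins hold SCAP back when sterols are plentiful. SREBP-2, from Srebf2, is known mainly for sterol genes and SREBP-1c, an isoform of Srebf1, mainly for fatty acid genes.

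Depth, estimated from the most common low FPKM step within a preset range, was 30.4 to 44.0 M (mega) fragments per library. The preset range bounds this estimate, and the chosen step held a share of only 0.056 to 0.072 of the low values. Yap1 and Wwtr1, which encode YAP and TAZ, were lower with YAP/TAZ siRNA, with no overlap between the siRNAs. Levels with YAP/TAZ siRNA against control siRNA were at most 3.02 against at least 5.79 FPKM for Yap1 and at most 1.83 against at least 5.37 FPKM for Wwtr1. Hspb1, a heat-induced small chaperone, averaged 175 ± 60.6 FPKM in heated and 11.3 ± 2.04 FPKM in unheated YAP/TAZ siRNA libraries (SD, n = 3 each). Hspb1 under control siRNA averaged 3309 ± 17.6 FPKM in heated (SD, n = 2) and 14.7 ± 2.38 FPKM in unheated control siRNA libraries (SD, n = 3). All 7 melanocyte markers were expressed, from 18.2 FPKM (Mitf, lowest library) to 3566 FPKM (Pmel, highest library). Only 5 of 15 genes that mark other cell types passed the filter, none was above 4.83 FPKM in any library, and Ptprc and Cdh5 were listed at 0 in all 11. Other leukocyte and endothelial markers were higher in heated control siRNA libraries: Cd68 (4.83 and 3.63 FPKM), Cd79a (1.87 and 1.82 FPKM) and Pecam1 (1.08 and 0.918 FPKM). In unheated control siRNA libraries these were at most 0.974, 0.306 and 0.0541 FPKM. Pdgfrb and Col1a2 were lower in heated than in unheated control siRNA libraries. The summed level of these 15 was 4.16 to 4.49 FPKM in heated and 2.71 to 3.27 FPKM in unheated YAP/TAZ siRNA cells. Under control siRNA it was 11.4 to 11.5 FPKM in heated and 5.48 to 5.85 FPKM in unheated cells, and the part of these markers in the results was not tested. In such bulk samples fewer cells of a type and less RNA per cell cannot be told apart. The median log2 change of all tested genes was -0.086 for heat under YAP/TAZ siRNA, -0.16 for heat under control siRNA, 0.11 for their difference, 0.13 for YAP/TAZ siRNA after heat and 0.023 without heat, and list medians below are set beside it. Exons of 13 of the 32 genes overlap another annotated gene (Hmgcs1, Idi1, Fdps, Ggps1, Fdft1, Lss, Cyp51, Tm7sf2, Srebf1, Scap, Scd2, Elovl6 and Acss2), and the library kit named in the labels does not mark strand, so that reads of both genes cannot be told apart there. Under median-of-ratios scaling the all-gene median of heat under control siRNA was -0.025 in place of -0.16. Of all called genes, the share that was higher was 37.0% for heat under YAP/TAZ siRNA (51.1% under median-of-ratios scaling and 19.5% with each library scaled to the same FPKM total). It was 25.1% for heat under control siRNA, 44.9% under median-of-ratios scaling and 19.7% with equal totals. For YAP/TAZ siRNA it was 66.9% after heat (51.2% and 58.8% under those scalings) and 55.3% without heat (45.5% and 55.0%).

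**Figure D1:**
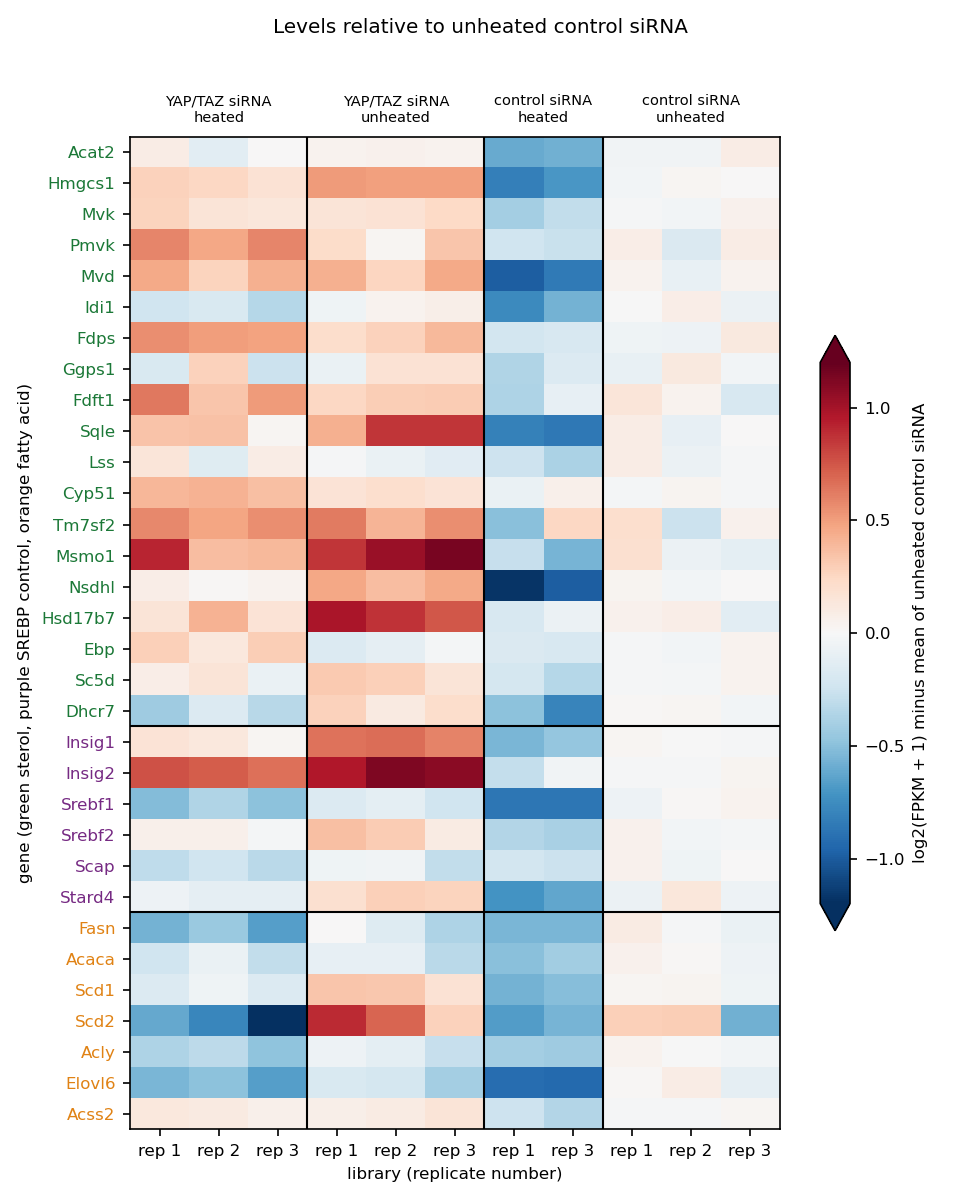
Log2(FPKM + 1) of each of the 32 genes in each of the 11 libraries, minus the gene's mean in the 3 unheated control siRNA libraries; columns are libraries grouped by siRNA and treatment, rows are genes grouped by role, and colours beyond 1.2 in either direction are saturated. The 2 heated control siRNA libraries are blue for most genes, most sterol genes are red in both YAP/TAZ siRNA groups, and Scd2 varies widely within groups.

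Heat in control siRNA cells lowered most of these genes. Of 19 sterol synthesis genes, 12 fell and 0 rose. Of 7 fatty acid synthesis genes 6 fell and 0 rose, and of 6 SREBP control genes 5 fell and 0 rose. Among all tested genes 36.9% fell and 12.4% rose. Calls are genes with an adjusted p under 0.05 in limma's moderated test on log2(FPKM + 1), adjusted by the Benjamini-Hochberg method over all 12626 genes. Each ± gives the standard error of the log2 change, or an SD where so marked. The median log2 change was -0.31 for the sterol genes and -0.54 for the fatty acid genes, beside -0.16 for all genes.

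Nsdhl, a dehydrogenase that takes part in removing methyl groups from the sterol ring (ENSMUSG00000031349, chromosome X, 72918557 to 72958514, GRCm38), was at 22.1, 21.0 and 21.5 FPKM in heated and 29.1, 27.2 and 29.0 FPKM in unheated YAP/TAZ siRNA libraries. Nsdhl under control siRNA was at 8.67 and 10.0 FPKM in heated and 21.3, 20.4 and 21.0 FPKM in unheated libraries. Both heated control siRNA libraries lay below all other libraries, and the log2 change with heat was -1.08 ± 0.062, adjusted p = 1.6e-06. Mvd, the decarboxylase that makes isopentenyl diphosphate (ENSMUSG00000006517, chromosome 8, 122433601 to 122443422), was at 28.5, 25.0 and 27.9 FPKM in heated and 28.0, 24.7 and 28.4 FPKM in unheated YAP/TAZ siRNA libraries. Mvd under control siRNA was at 9.85 and 10.99 FPKM in heated and 21.2, 19.3 and 21.2 FPKM in unheated libraries. Its heated control siRNA libraries were again the lowest of all, with a log2 change of -0.92 ± 0.084, adjusted p = 2.3e-05. Sqle, squalene epoxidase, which adds the first oxygen of the sterol branch (ENSMUSG00000022351, chromosome 15, 59315077 to 59331192), was at 23.7, 23.8 and 18.7 FPKM in heated and 25.1, 34.2 and 34.2 FPKM in unheated YAP/TAZ siRNA libraries. Sqle under control siRNA was at 10.0 and 9.75 FPKM in heated and 19.6, 17.2 and 18.5 FPKM in unheated libraries. Heated control siRNA libraries lay below unheated ones, as for 6384 of all 12626 tested genes, and Sqle fell by 0.83 ± 0.14, adjusted p = 0.00112. Hmgcs1, the cytosolic HMG-CoA synthase (ENSMUSG00000093930, chromosome 13, 119690379 to 119708260), was at 27.6, 27.0 and 25.6 FPKM in heated and 32.6, 32.1 and 32.2 FPKM in unheated YAP/TAZ siRNA libraries. Hmgcs1 under control siRNA was at 12.3 and 13.6 FPKM in heated and 22.1, 23.0 and 22.6 FPKM in unheated libraries. It fell with heat in control siRNA cells (-0.76 ± 0.052, adjusted p = 3.9e-06), and heated and unheated control siRNA libraries did not overlap.

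In the upper mevalonate pathway Acat2, the thiolase of the first step (-0.59 ± 0.066), Idi1, the isopentenyl diphosphate isomerase (-0.67 ± 0.08), and Mvk, mevalonate kinase (-0.35 ± 0.062), also fell. Dhcr7, the reductase of the last step, fell by 0.64 ± 0.10. Acat2 was at 20.5, 17.6 and 19.3 FPKM in heated and 19.8, 20.0 and 19.9 FPKM in unheated YAP/TAZ siRNA libraries. Acat2 under control siRNA was at 12.3 and 12.6 FPKM in heated and 18.6, 18.6 and 20.4 FPKM in unheated libraries, with both heated control siRNA libraries below all others. Heated control siRNA libraries lay below unheated ones for 6384 of all 12626 tested genes. Smaller falls of -0.21 for the farnesyl diphosphate synthase gene Fdps, -0.31 for the lanosterol synthase gene Lss, -0.18 for the sterol isomerase gene Ebp and -0.27 for the desaturase gene Sc5d also passed the test. The 7 sterol genes that were not called were all at values below 0, from -0.42 for the methylsterol monooxygenase gene Msmo1 to -0.0087 for the lanosterol demethylase gene Cyp51. Under median-of-ratios scaling Cyp51 turned to 0.16 (adjusted p = 0.0211 in limma's test).

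Elovl6, which elongates saturated fatty acids (ENSMUSG00000041220, chromosome 3, 129532355 to 129638495), was at 9.23, 9.58 and 8.44 FPKM in heated and 12.1, 11.9 and 10.2 FPKM in unheated YAP/TAZ siRNA libraries. Elovl6 under control siRNA was at 6.92 and 6.83 FPKM in heated and 14.1, 14.9 and 12.9 FPKM in unheated libraries. Heated control siRNA libraries were the lowest of the 4 groups, and the log2 change with heat was -0.92 ± 0.086, adjusted p = 2.5e-05. Fasn, fatty acid synthase (ENSMUSG00000025153, chromosome 11, 120805846 to 120824547), was at 41.8, 45.5 and 39.0 FPKM in heated and 62.6, 56.0 and 48.0 FPKM in unheated YAP/TAZ siRNA libraries. Fasn under control siRNA was at 42.4 and 42.4 FPKM in heated and 66.7, 61.8 and 58.8 FPKM in unheated libraries. It fell with heat in control siRNA cells by 0.54 ± 0.11, adjusted p = 0.00216. Its heated control siRNA libraries lay below the unheated ones, as for 6384 of all 12626 tested genes. The desaturase gene Scd1 (-0.54 ± 0.061), the acetyl-CoA carboxylase gene Acaca (-0.46 ± 0.09), the citrate lyase gene Acly (-0.42 ± 0.07) and the acetyl-CoA synthetase gene Acss2 (-0.30 ± 0.063) fell too. Scd2, a second desaturase, was not called (-0.61 ± 0.30, adjusted p = 0.124) and had 38.1 and 41.4 FPKM in heated against 74.9, 75.2 and 40.6 FPKM in unheated control siRNA libraries, where replicate 3 was well below the other 2. Without that replicate the Scd2 value was -0.90 and was called. Scd1 and Scd2 are close paralogs, so that their values may share fragments. Scd1 was at 34.0, 36.8 and 34.0 FPKM in heated and 48.6, 48.1 and 43.4 FPKM in unheated YAP/TAZ siRNA libraries. Scd1 under control siRNA was at 25.6 and 26.5 FPKM in heated and 38.8, 39.0 and 36.9 FPKM in unheated libraries.

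Srebf1 (ENSMUSG00000020538, chromosome 11, 60199089 to 60222581), which encodes the SREBP-1 factors, was at 15.4, 17.3 and 15.7 FPKM in heated and 20.0, 20.6 and 18.9 FPKM in unheated YAP/TAZ siRNA libraries. Srebf1 under control siRNA was at 11.9 and 11.9 FPKM in heated and 21.5, 22.8 and 23.2 FPKM in unheated libraries. It had one of the larger falls with heat under control siRNA (-0.87 ± 0.061, adjusted p = 4.8e-06), and both heated libraries lay below every other library. Heated control siRNA libraries lay below unheated ones for 6384 of all 12626 tested genes. Srebf2 (ENSMUSG00000022463, chromosome 15, 82147181 to 82205379), which encodes SREBP-2, was at 35.6, 35.8 and 33.5 FPKM in heated and 44.2, 42.4 and 36.6 FPKM in unheated YAP/TAZ siRNA libraries. Srebf2 under control siRNA was at 26.5 and 25.9 FPKM in heated and 35.5, 33.5 and 33.6 FPKM in unheated libraries, and fell by 0.37 ± 0.075, adjusted p = 0.00275. Stard4 was at 9.44, 9.08 and 9.06 FPKM in heated and 11.4, 12.3 and 12.0 FPKM in unheated YAP/TAZ siRNA libraries. Stard4 under control siRNA was at 5.61 and 6.03 FPKM in heated and 9.34, 10.9 and 9.41 FPKM in unheated libraries. The feedback gene Insig1 (-0.51 ± 0.052) and the sterol carrier gene Stard4 (-0.67 ± 0.07) fell, as did the SREBP escort gene Scap (-0.24 ± 0.077), and Insig2 was not called (-0.16 ± 0.078, adjusted p = 0.111). Some calls ended when 1 library was left out. Fdps (-0.22 to -0.15) was not called without heated control siRNA replicate 1 or 3 or unheated control siRNA replicate 3. Lss (-0.27 to -0.25) was not called without heated control siRNA replicate 3 or unheated control siRNA replicate 1. Ebp (-0.20 to -0.16) was not called without unheated YAP/TAZ siRNA replicate 2, heated control siRNA replicate 1 or 3 or unheated control siRNA replicate 1, 2 or 3. Sc5d (-0.25 to -0.21) was not called without heated control siRNA replicate 3 or unheated control siRNA replicate 3. Scap (-0.26 to -0.21) was not called without heated control siRNA replicate 1 or 3 or unheated control siRNA replicate 1 or 3. Others were gained in the same way. Pmvk (-0.34 to -0.25) was called without unheated YAP/TAZ siRNA replicate 2 or unheated control siRNA replicate 2. Fdft1 (-0.33) was called without unheated control siRNA replicate 3. Tm7sf2 (-0.50) and Insig2 (-0.29) were called without heated control siRNA replicate 3. Msmo1 (-0.42) was called without heated YAP/TAZ siRNA replicate 1. Quantile normalization left 7 in place of 12 sterol genes called lower.

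Promoter sequence is shown for Hmgcs1, Mvd and Nsdhl, sterol genes with large falls in control siRNA cells, and for Fasn as the central fatty acid gene. RefSeq promoter windows on GRCm38.p6, from 250 bases before to 50 bases after a gene's start, were matched for 26 of the 32 genes, all but Scd1, Scd2, Sqle, Stard4, Fdps and Fdft1. The stretches below lie before the start, read 5′ to 3′ on the gene's strand, and capitals mark the NF-Y box CCAAT, which reads ATTGG on the other strand, and the sterol regulatory element TCACNCCAC. They lie at chr13:119690104-119690320 (plus strand) for Hmgcs1, chr8:122443435-122443492 (minus strand) for Mvd, chrX:72918402-72918515 (plus strand) for Nsdhl and chr11:120824592-120824647 (minus strand) for Fasn.
Hmgcs1: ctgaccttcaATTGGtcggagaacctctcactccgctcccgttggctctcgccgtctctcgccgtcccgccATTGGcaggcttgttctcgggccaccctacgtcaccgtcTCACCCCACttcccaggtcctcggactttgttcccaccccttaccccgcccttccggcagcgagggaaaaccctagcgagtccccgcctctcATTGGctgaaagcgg
Mvd: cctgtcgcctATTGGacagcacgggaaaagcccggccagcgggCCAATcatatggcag
Nsdhl: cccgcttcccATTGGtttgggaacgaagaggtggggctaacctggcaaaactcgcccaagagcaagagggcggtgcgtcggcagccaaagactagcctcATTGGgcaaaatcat
Fasn: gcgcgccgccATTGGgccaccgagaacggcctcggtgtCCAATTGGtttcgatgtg
The run of 8 capitals in Fasn is an NF-Y box on either strand, overlapping by 2 bases. NF-Y is a trimeric factor that binds beside SREBP at many sterol gene promoters. Where RefSeq gives a gene several windows, a match in any of them was counted. CCAAT on either strand was in the windows of 15 of 16 matched sterol genes (93.8%), 4 of 5 SREBP control genes and 3 of 5 fatty acid genes, and in 43.2% of the 8451 tested genes with a window and 41.1% of all 27025 genes with one. TCACNCCAC was found for 1 of these 26 genes, Hmgcs1, and in 1.37% of tested genes and 1.44% of all genes. The E-box CACGTG was in 5 of 26 genes, against 12.3% of tested genes and 8.09% of all. The TEAD motif GGAATG was in 1 of 26 (Acss2), against 13.8% of tested genes and 16.6% of all, and a heat shock element (GAANNTTC or TTCNNGAA) in 2 (Idi1 and Tm7sf2), against 13.4% of tested genes and 17.0% of all. These matches are letters in short windows (34 for the 26 genes), not sites shown to be bound.

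**Figure D2:**
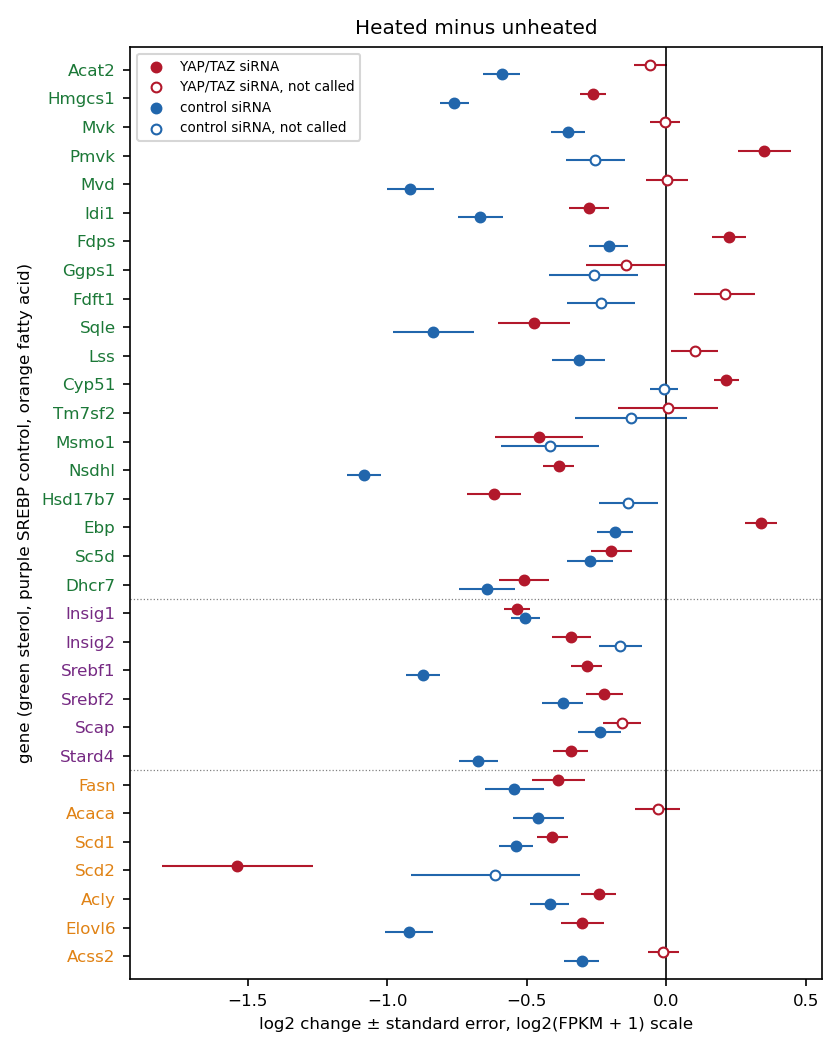
Log2 change of each gene with heat (x axis, heated minus unheated, log2(FPKM + 1) scale) under YAP/TAZ siRNA (red) and under control siRNA (blue); points are estimates, bars are standard errors and open points were not called. All 32 blue points lie at or below 0, while red points of sterol genes lie on both sides of 0.

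With heat in YAP/TAZ siRNA cells sterol genes went both ways, with a median near that of all genes, and most fatty acid genes fell. Of 19 sterol genes 4 rose, 8 fell and 7 were not called, beside 18.6% of all genes that rose and 31.7% that fell. Their median log2 change was -0.057, against -0.086 for all genes, and the list median turned to 0.04 under median-of-ratios scaling. That scaling gave 5 genes that rose and 6 that fell, scaling to the same total gave 1 and 10, and quantile normalization gave 4 and 7. Of 7 fatty acid genes 5 fell and 0 rose (median -0.30), and of 6 SREBP control genes 5 fell and 0 rose (median -0.31).

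The sterol genes that rose were Pmvk, phosphomevalonate kinase (0.35 ± 0.095, adjusted p = 0.013), Ebp (0.34 ± 0.057, adjusted p = 0.00122), Fdps (0.23 ± 0.062, adjusted p = 0.0138) and Cyp51 (0.21 ± 0.045, adjusted p = 0.00362). Pmvk was at 11.1, 10.1 and 11.1 FPKM in heated and 8.39, 7.20 and 9.18 FPKM in unheated YAP/TAZ siRNA libraries. Pmvk under control siRNA was at 5.83 and 5.69 FPKM in heated and 7.51, 6.15 and 7.60 FPKM in unheated libraries. Ebp was at 32.4, 29.0 and 32.7 FPKM in heated and 23.4, 24.4 and 26.0 FPKM in unheated YAP/TAZ siRNA libraries. Ebp under control siRNA was at 23.3 and 23.0 FPKM in heated and 26.2, 25.8 and 27.2 FPKM in unheated libraries. In both, the heated YAP/TAZ siRNA libraries were above every other library. Of all 12626 tested genes, 2694 had heated above unheated YAP/TAZ siRNA libraries, and 5808 had heated YAP/TAZ siRNA above heated control siRNA libraries. Fdps was at 42.7, 40.9 and 40.5 FPKM in heated and 33.3, 34.8 and 37.7 FPKM in unheated YAP/TAZ siRNA libraries. Fdps under control siRNA was at 24.5 and 24.8 FPKM in heated and 27.5, 27.3 and 31.1 FPKM in unheated libraries. Cyp51 was at 53.2, 54.0 and 51.7 FPKM in heated and 45.0, 46.3 and 45.2 FPKM in unheated YAP/TAZ siRNA libraries. Cyp51 under control siRNA was at 37.9 and 42.0 FPKM in heated and 39.6, 41.2 and 39.7 FPKM in unheated libraries. For both genes all 6 YAP/TAZ siRNA libraries were above all 5 control siRNA libraries. Between the siRNAs, 5808 of all 12626 tested genes lay higher in this way among heated libraries and 4035 among unheated ones. The share with all 6 above all 5 was not counted. With each library scaled to the same FPKM total, Pmvk, Fdps and Cyp51 were no longer called for this comparison, at 0.20, 0.063 and 0.052, and under quantile normalization Cyp51 was not called either (0.085).

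The sterol genes that fell were led by Hsd17b7, a ketosteroid reductase of the demethylation steps (-0.62 ± 0.10, adjusted p = 7.9e-04), Dhcr7 (-0.51 ± 0.089, adjusted p = 0.0015) and Sqle (-0.47 ± 0.13, adjusted p = 0.0134). Hsd17b7 (ENSMUSG00000026675, chromosome 1, 169949535 to 169969241) was at 4.11, 5.11 and 4.12 FPKM in heated and 8.01, 7.35 and 6.67 FPKM in unheated YAP/TAZ siRNA libraries. Hsd17b7 under control siRNA was at 2.99 and 3.34 FPKM in heated and 3.75, 3.82 and 3.18 FPKM in unheated libraries. Its unheated YAP/TAZ siRNA libraries were the highest, and the heated ones were also above all control siRNA libraries. YAP/TAZ siRNA libraries lay above control siRNA ones for 4035 of all 12626 tested genes without heat and 5808 after heat. Dhcr7 was at 10.8, 13.1 and 11.6 FPKM in heated and 18.3, 16.1 and 17.4 FPKM in unheated YAP/TAZ siRNA libraries. Dhcr7 under control siRNA was at 10.3 and 8.19 FPKM in heated and 15.0, 15.2 and 14.5 FPKM in unheated libraries, with heated libraries below unheated ones under both siRNAs. Of 12626 tested genes, 4550 lay lower in this way under YAP/TAZ siRNA and 6384 under control siRNA. Msmo1 (-0.46), Nsdhl (-0.39), Idi1 (-0.28), Hmgcs1 (-0.26) and Sc5d (-0.20) were also lower. Mvd and Mvk, both lower with heat under control siRNA, were at 0.0028 ± 0.075, adjusted p = 0.979 and -0.004 ± 0.055, adjusted p = 0.958. Leaving out 1 library ended some calls. Fdps (0.19 to 0.20) was not called without heated YAP/TAZ siRNA replicate 1 or unheated YAP/TAZ siRNA replicate 1. Sqle (-0.40) was not called without unheated YAP/TAZ siRNA replicate 2. Msmo1 (-0.44 to -0.36) was not called without heated YAP/TAZ siRNA replicate 2 or 3 or unheated YAP/TAZ siRNA replicate 2 or 3. Sc5d (-0.21 to -0.13) was called without heated YAP/TAZ siRNA replicate 2 or unheated YAP/TAZ siRNA replicate 3 but not without any other single library. Srebf2 (-0.20 to -0.17) was not called without heated YAP/TAZ siRNA replicate 3 or unheated YAP/TAZ siRNA replicate 1 or 2. It added others. Ggps1 (-0.31) was called without heated YAP/TAZ siRNA replicate 2. Scap (-0.24) was called without unheated YAP/TAZ siRNA replicate 3. Without unheated YAP/TAZ siRNA replicate 2, 5 in place of 8 sterol genes were called lower.

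Insig1, whose product retains SCAP in the endoplasmic reticulum (ENSMUSG00000045294, chromosome 5, 28071363 to 28078662), was at 61.6, 60.3 and 55.8 FPKM in heated and 86.9, 88.1 and 83.9 FPKM in unheated YAP/TAZ siRNA libraries. Insig1 under control siRNA was at 37.3 and 39.7 FPKM in heated and 55.9, 54.7 and 54.4 FPKM in unheated libraries. It fell with heat by 0.54 ± 0.047, adjusted p = 4.1e-05 under YAP/TAZ siRNA. Insig2, its relative (ENSMUSG00000003721, chromosome 1, 121304353 to 121332589), was at 25.7, 25.0 and 23.8 FPKM in heated and 29.6, 33.2 and 32.3 FPKM in unheated YAP/TAZ siRNA libraries. Insig2 under control siRNA was at 11.8 and 14.3 FPKM in heated and 14.5, 14.6 and 15.0 FPKM in unheated libraries. It fell by 0.34 ± 0.07, adjusted p = 0.00341 under YAP/TAZ siRNA. Stard4 (-0.34), Srebf1 (-0.28) and Srebf2 (-0.22) fell too, and Scap was not called (-0.16). Among fatty acid genes Scd2 had the largest estimate (-1.54 ± 0.27, adjusted p = 0.00154), at 39.6, 35.1 and 23.6 FPKM in heated against 115, 99.7 and 74.3 FPKM in unheated YAP/TAZ siRNA libraries. Its heated libraries lay below its unheated ones, as for 4550 of all 12626 tested genes, although values within each group differed widely. Scd1 (-0.41), Fasn (-0.39), Elovl6 (-0.30) and Acly (-0.24) fell, while Acaca (-0.031) and Acss2 (-0.0096) were not called.

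The heat response of the sterol genes differed between the siRNAs, by the interaction term of the same limma fit (heat change under YAP/TAZ siRNA minus heat change under control siRNA). Of 19 sterol genes, 11 were called with a higher value and 1 with a lower one under YAP/TAZ siRNA, beside 24.6% and 13.4% of all genes. Of 7 fatty acid genes 3 were called higher and 0 lower, and of 6 SREBP control genes 2 and 0. Median interaction values were 0.39 for sterol, 0.18 for fatty acid and 0.12 for SREBP control genes, beside 0.11 for all genes.

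Mvd had the largest positive interaction among the 32 genes (0.92 ± 0.11, adjusted p = 3.3e-04), where its heat change was 0.0028 under YAP/TAZ siRNA and -0.92 under control siRNA. Nsdhl (0.70 ± 0.083, adjusted p = 2.9e-04) fell under both siRNAs, by 0.39 under YAP/TAZ siRNA and 1.08 under control siRNA. Pmvk (0.61 ± 0.14, adjusted p = 0.00935) was at 0.35 under YAP/TAZ siRNA and -0.25 under control siRNA. Acat2 (0.53), Ebp (0.52), Hmgcs1 (0.50), Fdps (0.43), Lss (0.42), Idi1 (0.39), Mvk (0.35) and Cyp51 (0.22) were also higher. Hsd17b7 went the other way (-0.48 ± 0.14, adjusted p = 0.0261). The interaction of Sqle (0.36 ± 0.19, adjusted p = 0.172), Msmo1 (-0.04 ± 0.24, adjusted p = 0.912) and Dhcr7 (0.13 ± 0.13, adjusted p = 0.467) was not called.

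Of the regulators, Srebf1 had a called interaction (0.59 ± 0.082, adjusted p = 6.8e-04), as did Stard4 (0.33), while Srebf2 (0.15 ± 0.10, adjusted p = 0.273) and Insig1 (-0.031 ± 0.07, adjusted p = 0.762) did not. Elovl6 (0.62 ± 0.12, adjusted p = 0.00296), Acaca (0.43) and Acss2 (0.29) were the fatty acid genes called, and Fasn was not (0.16 ± 0.14, adjusted p = 0.412). The Scd2 value had the opposite sign (-0.92 ± 0.41, adjusted p = 0.103) and was not called. Some interaction calls ended when 1 library was left out. Mvk (0.29), Idi1 (0.29) and Acaca (0.39) were not called without heated control siRNA replicate 1. Lss (0.35 to 0.42) was called without heated YAP/TAZ siRNA replicate 2, unheated YAP/TAZ siRNA replicate 1, heated control siRNA replicate 1 or unheated control siRNA replicate 2 but not without any other single library. Cyp51 (0.15 to 0.22) was not called without heated YAP/TAZ siRNA replicate 1, unheated YAP/TAZ siRNA replicate 1, heated control siRNA replicate 1 or unheated control siRNA replicate 2. Hsd17b7 (-0.48 to -0.42) was not called without heated YAP/TAZ siRNA replicate 1 or 3, unheated YAP/TAZ siRNA replicate 1 or 2, heated control siRNA replicate 3 or unheated control siRNA replicate 3. Stard4 (0.29 to 0.31) was not called without heated YAP/TAZ siRNA replicate 1 or heated control siRNA replicate 1. Acss2 (0.24 to 0.28) was not called without heated YAP/TAZ siRNA replicate 1, heated control siRNA replicate 3 or unheated control siRNA replicate 3. Leaving out 1 library also added calls. Fdft1 (0.52 to 0.58) was called without heated YAP/TAZ siRNA replicate 2, heated control siRNA replicate 3 or unheated control siRNA replicate 3. Insig2 (-0.30) was called without heated control siRNA replicate 1. Quantile normalization left 7 sterol genes called higher, and scaling to the same total left 1 fatty acid gene. Under quantile normalization the fatty acid median interaction turned to -0.024.

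**Figure D3:**
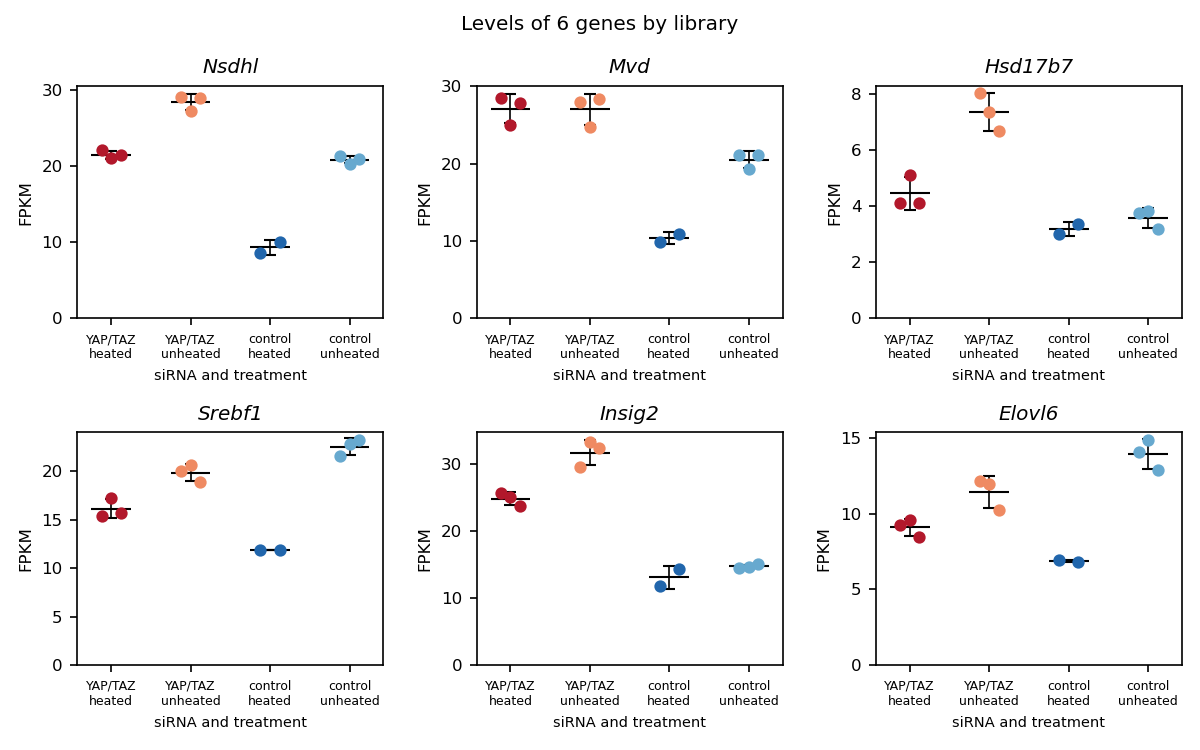
FPKM of 6 genes in each library (points), with group means (lines) and standard deviations (bars), n = 3 per group except heated control siRNA with n = 2. Nsdhl and Mvd are lowest in heated control siRNA cells, Hsd17b7 stands out in unheated YAP/TAZ siRNA cells, Insig2 is higher in both YAP/TAZ siRNA groups, and Srebf1 and Elovl6 are lower with heat under both siRNAs.

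With YAP/TAZ siRNA and no heat, most sterol genes rose, and the fatty acid genes gave few calls whose number depended on single libraries. Of 19 sterol genes 11 rose and 0 fell, beside 27.1% of all genes that rose and 21.9% that fell. Of 6 SREBP control genes 4 rose and 1 fell, and of 7 fatty acid genes 1 rose and 1 fell. Median log2 changes were 0.25 for sterol, 0.25 for SREBP control and -0.15 for fatty acid genes, beside 0.023 for all genes.

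Insig2 had the largest rise (1.06 ± 0.07, adjusted p = 3.3e-06), to 2.08 times its control level on the FPKM + 1 scale. Msmo1 (ENSMUSG00000031604, chromosome 8, 64718139 to 64733792) was at 26.3, 17.7 and 18.0 FPKM in heated and 25.4, 28.8 and 30.9 FPKM in unheated YAP/TAZ siRNA libraries. Msmo1 under control siRNA was at 11.003 and 8.87 FPKM in heated and 15.6, 12.8 and 12.4 FPKM in unheated libraries. Its unheated YAP/TAZ siRNA libraries were all above the unheated control siRNA libraries (1.01 ± 0.16, adjusted p = 5.7e-04). Hsd17b7 (0.86 ± 0.10, adjusted p = 6.9e-05), Sqle (0.71 ± 0.13, adjusted p = 0.0014) and Insig1 (0.64 ± 0.047, adjusted p = 5.5e-06) followed, also above all unheated control siRNA libraries, as were 4035 of all 12626 tested genes. The sterol reductase gene Tm7sf2 (0.53), Hmgcs1 (0.50), Nsdhl (0.43), Mvd (0.38), Fdps (0.29), Sc5d (0.25), Mvk (0.19) and Cyp51 (0.18) rose less. Tm7sf2 was at 6.83, 6.32 and 6.73 FPKM in heated and 7.10, 5.96 and 6.74 FPKM in unheated YAP/TAZ siRNA libraries. Tm7sf2 under control siRNA was at 2.72 and 5.26 FPKM in heated and 5.07, 3.41 and 4.45 FPKM in unheated libraries. It shares exon sequence with Vps51 on the same strand, and its values are uncertain. Srebf2 rose by 0.25 ± 0.067, adjusted p = 0.0112 and Stard4 by 0.25, while Srebf1 fell by 0.17 ± 0.055, adjusted p = 0.0253.

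The fatty acid genes divided. Scd1 rose (0.28 ± 0.055, adjusted p = 0.00229), Elovl6 fell (-0.27 ± 0.077, adjusted p = 0.017), and Fasn was not called (-0.17 ± 0.094, adjusted p = 0.164). The other 4 had values of 0.62 for Scd2, 0.11 for Acss2, -0.15 for Acly and -0.17 for Acaca. Unheated YAP/TAZ siRNA replicate 3 was the lowest of its group for Fasn, Acaca, Scd1, Scd2, Acly and Elovl6. Unheated control siRNA replicate 3 was also the lowest of its group for each of these genes. Heated YAP/TAZ siRNA replicate 3 was the lowest of its group for all of them but Scd1. Some calls were lost when 1 library was left out. Mvk (0.17 to 0.18) was not called without unheated YAP/TAZ siRNA replicate 3 or unheated control siRNA replicate 1 or 2. Tm7sf2 (0.40 to 0.55) and Srebf1 (-0.18 to -0.14) were not called without unheated YAP/TAZ siRNA replicate 1 or 3 or unheated control siRNA replicate 2 or 3. Sc5d (0.22 to 0.24) was not called without unheated YAP/TAZ siRNA replicate 1 or 2 or unheated control siRNA replicate 1 or 2. Elovl6 (-0.22 to -0.20) was not called without unheated YAP/TAZ siRNA replicate 3 or unheated control siRNA replicate 2. Other genes passed the test once a library was left out. Pmvk (0.28) was called without unheated YAP/TAZ siRNA replicate 2. Fdft1 (0.28 to 0.36) was called without heated YAP/TAZ siRNA replicate 2, heated control siRNA replicate 1 or 3 or unheated control siRNA replicate 1. Fasn (-0.26) and Acly (-0.20) were called without unheated YAP/TAZ siRNA replicate 1. The count of fatty acid genes called lower was 3 without unheated YAP/TAZ siRNA replicate 1, and 0 without unheated YAP/TAZ siRNA replicate 3 or unheated control siRNA replicate 2. Median-of-ratios scaling left 7 sterol genes called higher and 1 lower, and under it 4 fatty acid genes were called lower.

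Over the 32 genes together, YAP/TAZ siRNA after heat was the comparison with the most calls (27), as it was for all tested genes. Fatty acid genes had more calls with heat under either siRNA. Of 19 sterol genes 18 rose and 0 fell, beside 36.3% of all genes that rose and 17.9% that fell, and the remaining gene, Ggps1, which makes geranylgeranyl diphosphate, was at 0.21 ± 0.16, adjusted p = 0.304. Of 6 SREBP control genes 5 rose and 0 fell, and of 7 fatty acid genes 4 rose and 0 fell. The medians were 0.58 for sterol, 0.50 for SREBP control and 0.25 for fatty acid genes, beside 0.13 for all genes. This comparison shares its libraries with the heat comparisons above, which are not independent of it.

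From the library values above, Mvd rose by 1.30 ± 0.084, adjusted p = 3.0e-06, or 2.46-fold on the FPKM + 1 scale. Nsdhl rose by 1.12 ± 0.062, adjusted p = 1.3e-06, Sqle by 1.07 ± 0.14, adjusted p = 2.3e-04, Hmgcs1 by 0.99 ± 0.052, adjusted p = 9.1e-07 and Msmo1 by 0.97 ± 0.18, adjusted p = 0.00134. For each of these 5 genes all 3 heated YAP/TAZ siRNA libraries were above both heated control siRNA libraries, as for 46.0% of all tested genes. The promoters of Hmgcs1, Mvd and Nsdhl are the ones shown above. The squalene synthase gene Fdft1 was at 15.5, 12.4 and 14.1 FPKM in heated and 11.6, 12.0 and 12.2 FPKM in unheated YAP/TAZ siRNA libraries. Fdft1 under control siRNA was at 7.20 and 8.95 FPKM in heated and 10.8, 9.96 and 8.31 FPKM in unheated libraries. With YAP/TAZ siRNA after heat Fdft1 rose by 0.73 ± 0.12, adjusted p = 8.6e-04. The farnesyl diphosphate synthase gene Fdps rose by 0.72, Pmvk by 0.80, Acat2 by 0.58 and Mvk by 0.54. The smallest called rises were 0.33 for Sc5d, 0.33 for Dhcr7, 0.34 for Lss and 0.38 for Hsd17b7.

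Insig2 (0.88 ± 0.078, adjusted p = 1.8e-05), Insig1 (0.61 ± 0.052, adjusted p = 1.5e-05), Stard4 (0.58), Srebf1 (0.41 ± 0.061, adjusted p = 4.4e-04) and Srebf2 (0.40 ± 0.075, adjusted p = 0.00156) rose, and Scap was not called (-0.05 ± 0.077, adjusted p = 0.611). Srebf1 thus fell with the siRNA pool without heat and rose with it after heat, which is the called interaction given above. Scd1 (0.41), Acss2 (0.40), Elovl6 (0.35) and Acaca (0.25) rose, while Fasn (-0.013 ± 0.11, adjusted p = 0.927), Acly (0.025 ± 0.07, adjusted p = 0.785) and Scd2 (-0.30 ± 0.30, adjusted p = 0.426) were not called. Single left-out libraries ended some calls. Lss (0.27) and Sc5d (0.26) were not called without heated control siRNA replicate 3. Tm7sf2 (0.29) and Hsd17b7 (0.32) were not called without heated control siRNA replicate 1. Dhcr7 (0.19 to 0.26) was not called without heated YAP/TAZ siRNA replicate 2 or heated control siRNA replicate 3. Acaca (0.19 to 0.29) was not called without heated YAP/TAZ siRNA replicate 1 or 2, heated control siRNA replicate 1 or 3 or unheated control siRNA replicate 1 or 2. Scaling to the same total left 2 fatty acid genes called higher. Acaca was not called under that scaling (0.18), under median-of-ratios scaling (0.13) or under quantile normalization (0.14). Nor was it called with no filter or with only the groups compared (0.25 each). Across all 9 other settings 15 to 18 sterol genes were called higher.

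**Figure D4:**
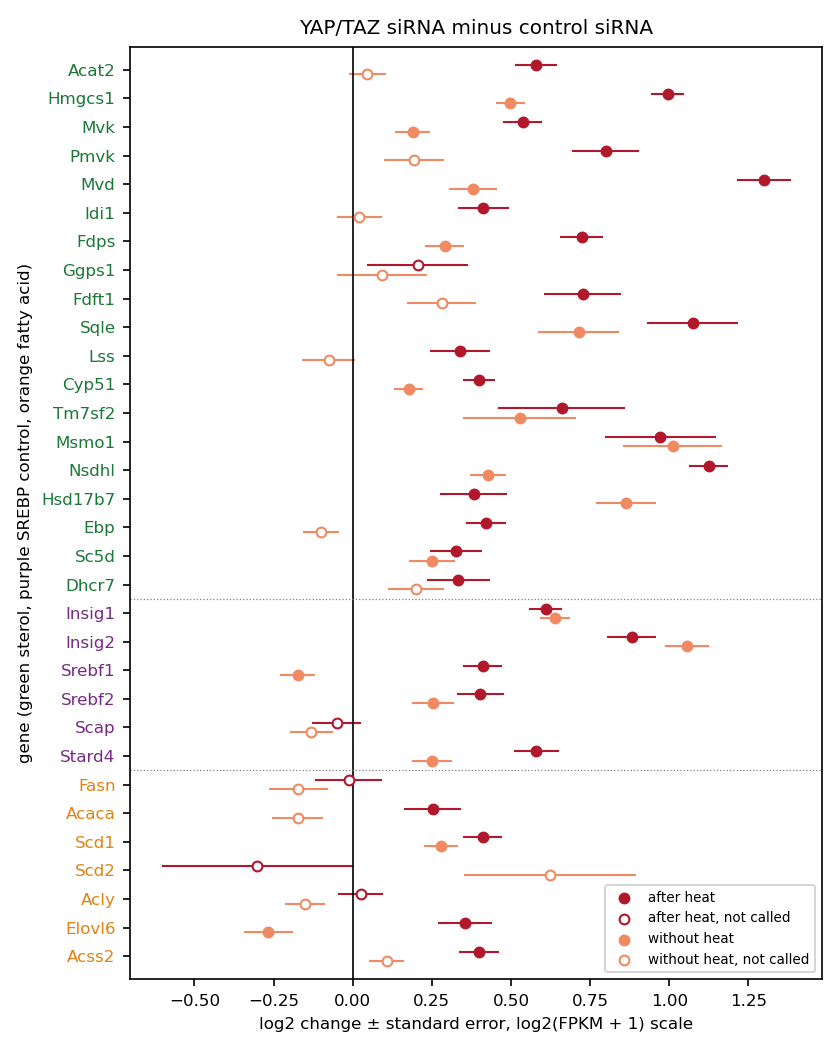
Log2 change of each gene with YAP/TAZ siRNA (x axis, YAP/TAZ siRNA minus control siRNA, log2(FPKM + 1) scale) after heat (dark red) and without heat (orange); points are estimates, bars are standard errors and open points were not called. After heat all 19 sterol genes lie above 0, from 0.21 to 1.30.

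Sterol genes stood above fatty acid genes in all 5 comparisons, by the difference of the list medians. That difference was 0.24 for heat under YAP/TAZ siRNA, 0.23 for heat under control siRNA, 0.21 for the interaction, 0.33 for YAP/TAZ siRNA after heat and 0.40 without heat, on the log2 scale. It was above 0 in each comparison under every setting and with any 1 library left out. The 5 comparisons are drawn from the same 4 groups and are not independent. The difference is given without a test, since the lists hold 19 and 7 genes that were chosen by pathway and share their libraries. Over the other settings and left-out libraries it ranged over 0.20 to 0.36 for heat under YAP/TAZ siRNA, 0.12 to 0.31 for heat under control siRNA, 0.11 to 0.30 for the interaction, 0.26 to 0.48 for YAP/TAZ siRNA after heat and 0.32 to 0.44 without heat.

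Averaged over a list and set against the mean of unheated control siRNA libraries, the sterol genes were at 0.26, 0.21 and 0.17 log2 units in heated and 0.30, 0.30 and 0.35 in unheated YAP/TAZ siRNA libraries, and at -0.47 and -0.40 in heated control siRNA libraries. Unheated control siRNA libraries were at 0.034, -0.031 and -0.0035. All 6 YAP/TAZ siRNA libraries were above all 5 control siRNA libraries on this measure. The fatty acid genes were at -0.34, -0.30 and -0.51 in heated and 0.14, 0.076 and -0.11 in unheated YAP/TAZ siRNA libraries, at -0.55 and -0.53 in heated and at 0.07, 0.057 and -0.13 in unheated control siRNA libraries. Here the libraries separated by heat, and the unheated groups overlapped. The SREBP control genes were at 0.017, 0.034 and -0.045 in heated and 0.33, 0.37 and 0.25 in unheated YAP/TAZ siRNA libraries, and at -0.50 and -0.44 in heated and -0.0043, 0.0079 and -0.0036 in unheated control siRNA libraries. All tested genes together averaged -0.045 to -0.018 in heated and 0.033 to 0.041 in unheated YAP/TAZ siRNA cells, and were at -0.11 in both heated control siRNA libraries. In unheated control siRNA libraries they were at -0.0032 to 0.0031, so their mean also separated by heat, over a narrower range. Summed FPKM of the 19 sterol genes averaged 349 ± 13.8 in heated and 366 ± 10.96 in unheated YAP/TAZ siRNA libraries (SD, n = 3 each). Under control siRNA this sum was 211 ± 6.59 in heated (SD, n = 2) and 289 ± 4.87 in unheated control siRNA libraries (SD, n = 3).

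**Figure D5:**
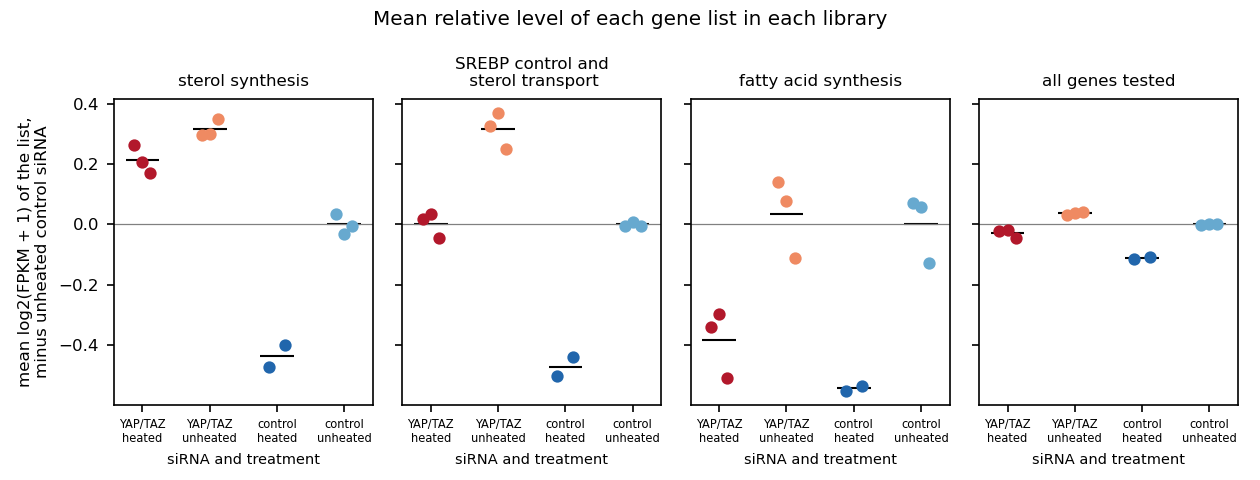
Mean log2(FPKM + 1) of the genes of each list in each library (points), minus the mean of the 3 unheated control siRNA libraries, with group means as lines. Sterol gene means are above 0 in all 6 YAP/TAZ siRNA libraries and below -0.39 in both heated control siRNA libraries, while fatty acid gene means are below -0.29 in all 5 heated libraries.

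Genes around these pathways were read from lists made by pathway, and the genes named from them are among the called ones with the smallest p. The counts below stand beside all tested genes, of which 18.6% rose and 31.7% fell with heat under YAP/TAZ siRNA and 12.4% rose and 36.9% fell with heat under control siRNA. With YAP/TAZ siRNA 36.3% of all tested genes rose and 17.9% fell after heat, and 27.1% rose and 21.9% fell without heat. Of SREBP processing and turnover genes (12 tested of 13 listed), 0 rose and 5 fell with heat under YAP/TAZ siRNA, and 2 rose and 6 fell with heat under control siRNA. Of the same genes, 5 rose and 2 fell with YAP/TAZ siRNA after heat and 3 rose and 0 fell without heat. Mbtps1, the Golgi protease that makes the first cut in SREBP, was at 11.8, 12.3 and 11.6 FPKM in heated and 17.6, 17.0 and 16.7 FPKM in unheated YAP/TAZ siRNA libraries. Mbtps1 under control siRNA was at 6.63 and 7.05 FPKM in heated and 12.5, 12.9 and 12.4 FPKM in unheated libraries. Its levels were lowest in heated control siRNA cells (heat change -0.80 ± 0.049, adjusted p = 2.3e-06), and it rose with YAP/TAZ siRNA after heat (0.72 ± 0.049, adjusted p = 4.1e-06). Erlin2, an INSIG partner, rose with YAP/TAZ siRNA both after heat (0.72 ± 0.049) and without it (0.71 ± 0.044).

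Of the genes of sterol esterification, efflux and the LXR response (8 tested of 12 listed), 1 rose and 5 fell with heat under YAP/TAZ siRNA, and 1 rose and 4 fell with heat under control siRNA. Among them 2 rose and 2 fell with YAP/TAZ siRNA after heat and 4 rose and 1 fell without heat. The cholesterol exporter gene Abca1, a known LXR target, was at 3.52, 4.20 and 3.12 FPKM in heated and 10.3, 9.90 and 8.83 FPKM in unheated YAP/TAZ siRNA libraries. Abca1 under control siRNA was at 2.87 and 2.90 FPKM in heated and 3.28, 2.90 and 2.72 FPKM in unheated libraries. The unheated YAP/TAZ siRNA libraries stood far above all others, with a rise without heat (1.43 ± 0.095, adjusted p = 3.3e-06) and a called interaction (-1.19 ± 0.14, adjusted p = 2.9e-04). Mylip, an LXR target that encodes a ubiquitin ligase for lipoprotein receptors, also rose without heat (1.06 ± 0.077, adjusted p = 5.3e-06) and had a negative interaction (-0.86 ± 0.12, adjusted p = 5.3e-04). Of genes that use isoprenoids (13 tested of 13 listed), 2 rose and 4 fell with heat under YAP/TAZ siRNA, and 0 rose and 6 fell with heat under control siRNA. In this list 5 rose and 1 fell with YAP/TAZ siRNA after heat and 1 rose and 5 fell without heat.

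Of other genes of fatty acid synthesis and modification (21 tested of 24 listed), 4 rose and 7 fell with heat under YAP/TAZ siRNA, and 0 rose and 11 fell with heat under control siRNA. Of these genes 9 rose and 1 fell with YAP/TAZ siRNA after heat and 5 rose and 5 fell without heat. Acsl3, which activates fatty acids, was at 34.0, 33.5 and 30.6 FPKM in heated and 39.1, 43.2 and 43.1 FPKM in unheated YAP/TAZ siRNA libraries. Acsl3 under control siRNA was at 15.0 and 16.0 FPKM in heated and 24.8, 27.2 and 23.1 FPKM in unheated libraries. It rose with YAP/TAZ siRNA after heat (1.03 ± 0.079, adjusted p = 7.7e-06). Of glycerolipid assembly genes (14 tested of 15 listed), 1 rose and 7 fell with heat under YAP/TAZ siRNA, and 3 rose and 8 fell with heat under control siRNA. Here 5 rose and 4 fell with YAP/TAZ siRNA after heat and 7 rose and 3 fell without heat. The lipid droplet coat gene Plin3 rose with YAP/TAZ siRNA after heat (1.03 ± 0.058, adjusted p = 1.4e-06) and without heat (0.74 ± 0.052, adjusted p = 4.6e-06). The choline kinase gene Chka (-1.24 ± 0.17, adjusted p = 5.3e-04) and the phosphatidate phosphatase gene Lpin1 (-1.41 ± 0.17, adjusted p = 2.8e-04) had negative interactions.

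Fatty acid oxidation breaks fatty acids down to acetyl-CoA. Of the list for this pathway, which also holds regulators and a carrier (19 tested of 20 listed), 7 rose and 3 fell with heat under YAP/TAZ siRNA. With heat under control siRNA 1 rose and 7 fell. Of these genes, 15 rose and 1 fell with YAP/TAZ siRNA after heat and 10 rose and 3 fell without heat. Their median log2 change with YAP/TAZ siRNA after heat was 0.41, beside 0.25 for the fatty acid synthesis genes and 0.13 for all genes. Cpt1a, which loads fatty acids for import into mitochondria, was at 12.5, 15.2 and 13.1 FPKM in heated and 22.9, 23.1 and 21.6 FPKM in unheated YAP/TAZ siRNA libraries. Cpt1a under control siRNA was at 7.12 and 6.93 FPKM in heated and 12.3, 12.4 and 12.4 FPKM in unheated libraries. It fell with heat under both siRNAs (-0.69 under YAP/TAZ siRNA and -0.74 under control siRNA) and rose with YAP/TAZ siRNA after heat (0.86 ± 0.072, adjusted p = 1.3e-05).

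The interaction was called higher and lower for 4 and 2 genes of SREBP processing, 1 and 2 of esterification and efflux, 4 and 0 of isoprenoid use, 7 and 0 of other fatty acid synthesis, 2 and 3 of glycerolipid assembly and 7 and 2 of fatty acid oxidation, beside 24.6% and 13.4% of all tested genes. Of the 7 melanocyte markers, 1 rose and 4 fell with heat under YAP/TAZ siRNA, and 0 rose and 3 fell with heat under control siRNA. Among these, 5 rose and 1 fell with YAP/TAZ siRNA after heat and 4 rose and 2 fell without heat. Of the 5 tested markers of other cell types, 1 rose and 1 fell with heat under YAP/TAZ siRNA, and 2 rose and 2 fell with heat under control siRNA. Of the same markers, 0 rose and 4 fell with YAP/TAZ siRNA after heat and 0 rose and 3 fell without heat.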

How the data were processed

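The authors deposited 1 table of FPKM per gene and library. Tools named in the submitters' processing notes are HISAT2, StringTie, SAMtools, Trimmomatic 0.36 and DESeq2, with the build GRCm38 and no parameters. Symbols were matched through Ensembl IDs, and coordinates come from GENCODE M21 on GRCm38. Values were taken as log2(FPKM + 1) without further scaling, and genes at 1 FPKM or more in at least 2 libraries were fitted with limma 3.58.1 in R 4.3.3 (1 mean per group, all 11 libraries, 7 residual degrees of freedom, trended variance). The fit was also run on simulated independent normal values with few genes changed, a setting that does not cover shifts of all genes with scaling. A fold change on this scale understates that of low genes. Depth was estimated from the most common low step of FPKM times length in genes with a single transcript, searched within a preset range. Alternatives were a pseudocount of 0.1, no filter or 5 FPKM, 3 other scalings, no trend, only the groups compared, a replicate block and leaving out each library. The members and lists were chosen with earlier results of these data known. In each comparison library values are given for the 5 largest called members per direction and for Srebf1, Srebf2, Fasn and Hmgcs1, and up to 3 called genes of each other list with the smallest p may be named. Library values of Acat2, Fdft1, Tm7sf2, Scd1, Stard4, Mbtps1, Abca1, Acsl3 and Cpt1a were added after the values were seen.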

Additional observations from a re-analysis of the deposited data

Results flagged for a closer look

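For 17 of the 32 genes the effect of heat differed between YAP/TAZ siRNA and control siRNA cells by the test of the difference itself (limma's interaction term, adjusted p under 0.05 over 12626 genes). On the log2(FPKM + 1) scale, the heat change under YAP/TAZ siRNA minus that under control siRNA was 0.92 for Mvd, 0.70 for Nsdhl, 0.61 for Pmvk, 0.53 for Acat2, 0.52 for Ebp, 0.50 for Hmgcs1, 0.43 for Fdps, 0.42 for Lss, 0.39 for Idi1, 0.35 for Mvk and 0.22 for Cyp51 among sterol genes. It was 0.62 for Elovl6, 0.59 for Srebf1, 0.43 for Acaca, 0.33 for Stard4 and 0.29 for Acss2 among SREBP control and fatty acid genes. Only Hsd17b7 had a negative value, -0.48. Of the 17, 9 were called in every setting and without each library (Acat2, Hmgcs1, Pmvk, Mvd, Fdps, Nsdhl, Ebp, Srebf1 and Elovl6). Among all tested genes the interaction was called higher in 24.6% and lower in 13.4%.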

How the results depend on the processing

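Counts of called genes moved with scaling and with single libraries. Quantile normalization left 7 sterol genes called lower for heat under control siRNA (12 in the reported fit) and 7 called higher for the interaction (11). Scaling to the same FPKM total left 1 fatty acid gene for the interaction (3) and 2 for YAP/TAZ siRNA after heat (4). Median-of-ratios scaling left 7 sterol genes called higher with YAP/TAZ siRNA without heat (11), and with it Cyp51 turned to 0.16 for heat under control siRNA. The cause of these moves was not tested. With 1 library left out, sterol genes called ranged from 9 to 13 (lower, heat under control siRNA), 5 to 8 (lower, heat under YAP/TAZ siRNA), 8 to 12 (higher, interaction), 8 to 12 (higher, YAP/TAZ siRNA without heat) and 15 to 18 (higher, YAP/TAZ siRNA after heat). The matching ranges for fatty acid genes were 6 to 7 (heat under control siRNA), 2 to 3 (interaction) and 3 to 4 (YAP/TAZ siRNA after heat), while 5 were called lower each time for heat under YAP/TAZ siRNA. For YAP/TAZ siRNA without heat 1 was called higher each time, and 0 to 3 lower (1 in the reported fit). Of the 23, 22, 17, 18 and 27 members called in these comparisons, 16, 13, 9, 12 and 20 were called in every setting and without each library. Same-numbered libraries had correlations of their deviations from group means of -0.11 to 0.134 (15 pairs, 3 over 0.1, median 0.0096). Differently numbered libraries had -0.18 to 0.155 (30 pairs, 2 over 0.1, median -0.017). With 2 or 3 libraries per group these values cannot decide whether the numbers pair samples. With the replicate number as a block, 2 fatty acid genes were called higher with YAP/TAZ siRNA without heat (1 without the block) and 2 lower (1, Acly added at -0.15), Scd2 was called lower for the interaction (-1.01), and sterol genes called were 13, 8, 11, 12 and 18 in the order above. Precision is limited by 2 heated control siRNA libraries and by the deposited unit, which is not a count.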
